A study of Mus musculus with 8 samples.

Results

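The ribosomal protein genes were described in single cells of 2 pancreatic tumors of KPC mice. They were taken from the gene symbols alone: a symbol that starts with Rpl or Rps followed by a digit, or Rpsa, Rplp0, Rplp1 or Rplp2, without pseudogene symbols ending in -ps and a number and without the kinase genes Rps6ka and Rps6kb. This gave 88 of the 27775 gene rows. Of these, 46 encode proteins of the large ribosomal subunit and 31 encode proteins of the small subunit, which together are called the 77 core genes. A further 8 are paralogs, copies of a core gene elsewhere in the genome. The other 3 share the symbol but do not encode ribosomal proteins, namely Rps19bp1 (a binding protein of RPS19), Rps6kc1 and Rps6kl1 (kinase-like genes). Conversely, Fau and Gnb2l1 (RACK1) encode ribosomal proteins under other names and were read as companions.

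The ribosome translates mRNA in every cell. Its small subunit decodes the message, its large subunit joins the amino acids, and a stalk made of RPLP0, RPLP1 and RPLP2 recruits the elongation factors. The mRNAs of ribosomal proteins are among the most abundant of any growing cell, and many begin with a run of pyrimidines, the 5′ terminal oligopyrimidine motif, through which growth signalling sets their translation. Ribosome biogenesis factors such as nucleophosmin (Npm1) and nucleolin (Ncl) assemble the proteins with rRNA, and MYC is a known driver of both groups of genes.

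Both animals were untreated KPC mice, in which Pdx-1-Cre acts in the pancreatic lineage and turns on tumor-driving alleles, among them Trp53R172H, so each tumor holds carcinoma cells of that lineage beside host cells without the Cre. One tumor was of medium size and one was large. Each was dissociated and run on the 10x Genomics Chromium 3′ v2 chemistry as 4 technical replicates, which the count tables hold pooled. Each size is therefore 1 sample with no replicate, no test between groups was possible, and tumor size, animal, library and depth cannot be told apart. Intervals given below are exact 95% intervals and cover counting error only.

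The medium tumor gave 2812 cells with a median of 5456.5 UMIs (unique transcript counts) per cell, and the large tumor gave 1533 cells with a median of 1037. All 13 mitochondrial transcript rows held 0 UMIs in both tables, so the usual mitochondrial measure of cell quality could not be set beside the ribosomal share. The tables shared 5 cell barcodes. Cells were clustered with the 88 genes kept out of the variable genes, and clusters were named from marker lists. Epithelial-like cells made up 2330 cells of the medium and 1219 of the large tumor, and monocyte/macrophage-like cells 238 and 253. By the same markers 67 and 50 cells were fibroblast-like, 38 and 11 endothelial-like, and 74 cells of the medium tumor mesothelial-like. One cluster of 65 cells in the medium tumor carried 10 of 11 epithelial and 9 of 11 macrophage markers and was left unnamed. No doublet caller was run.

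The start of the gene shows what many of these genes share. Within 20 bases of an annotated RefSeq transcription start (GRCm38.p6), a run of at least 8 consecutive C or T bases on the sense strand was present in 28 of the 57 core genes with a start in the promoter table (49.1%), against 18.3% of 26947 genes outside the list. The same run was found for 13 of 69 mitochondrial ribosomal protein genes (18.8%) and 1 of 30 ribosome biogenesis genes (3.33%). A list of translation factors and other genes known for the motif, Vim among them, had it in 5 of 13 genes (38.5%). That list was drawn up partly by the motif, so its share is not independent of it. The windows shown are those of Rpl35, Rpl28, Rpl27, Rpl41 and Rpl22l1, which were among the genes that differed most between the tumors, and of Rps27 with its copy Rps27rt. Each gives 20 bases before and 20 bases from the start, with the run in capitals.
Rpl35, chr2:39005112-39005151, minus strand: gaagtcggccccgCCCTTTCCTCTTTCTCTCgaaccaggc
Rpl28, chr7:4792945-4792984, plus strand: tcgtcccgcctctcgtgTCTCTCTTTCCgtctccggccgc
Rpl27, chr11:101442225-101442264, plus strand: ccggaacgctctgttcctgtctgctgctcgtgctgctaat
Rpl41, chr10:128549149-128549188, minus strand: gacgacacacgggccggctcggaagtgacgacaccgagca
Rpl22l1, chr3:28805488-28805527, plus strand: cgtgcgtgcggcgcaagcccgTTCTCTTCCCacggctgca
Rps27, chr3:90213629-90213668, minus strand: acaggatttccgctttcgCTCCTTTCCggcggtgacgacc
Rps27rt, chr9:114982720-114982759, minus strand: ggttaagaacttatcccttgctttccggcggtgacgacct
Rpl35, Rpl28 and Rpl22l1 held a run and Rpl27 and Rpl41 did not, so genes with and without one stood at both ends of the comparison of the tumors. Over the core genes, the median log2 ratio of the large to the medium tumor in epithelial-like cells was 0.25 for the 28 genes with a run and 0.17 for the 29 without. In macrophage-like against epithelial-like cells the medians were -0.18 and -0.19 in the medium tumor and -0.39 and -0.33 in the large tumor. The run thus went with no more than a small difference in any of these contrasts. The absence of a run says only that these letters are not in the window.

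The 88 genes took 4968166 of 20301669 UMIs in the medium tumor (24.5%) and 622931 of 2239012 in the large tumor (27.8%). Of the 88 genes the most abundant in the medium tumor was Rps14, a small-subunit protein at 7863 CPM (UMI counts scaled to the same total in every group), and in the large tumor Rpl32, a large-subunit protein at 10836 CPM against 6773 in the medium tumor. The least abundant core gene of the medium tumor was Rpl27 at 725 CPM, seen in 94.8% of its cells. The least abundant of the large tumor was Rpl35, a large-subunit protein near the exit of the nascent chain, at 129 CPM against 1266 in the medium tumor. No core gene had fewer than 100 UMIs in either table. The genes with the fewest counts were not core genes. Rpl10l was at 0 in both tumors, which allows up to 0.148 CPM in the medium and 1.34 CPM in the large tumor. Rpl3l, the muscle form of Rpl3, had 3 and 1 UMIs, Rpl39l and Rps6kl1 had 2 UMIs each in the medium and 0 in the large tumor, and Rps6kc1 had 68 and 6. The 17 rows with a pseudogene symbol added 0.35% to the UMIs of the 88 genes in the medium tumor and 0.843% in the large tumor.

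The share of transcripts from the 88 genes differed between cell classes in both tumors and was higher in epithelial-like than in macrophage-like cells. In the medium tumor it was 24.7% in epithelial-like cells (interval 24.7 to 24.7%), 23.6% in endothelial-like, 23.1% in mesothelial-like, 21.7% in fibroblast-like and 21.5% in macrophage-like cells (21.4 to 21.6%). The large tumor had 28.6% in epithelial-like (28.5 to 28.7%), 24.5% in endothelial-like, 23.7% in fibroblast-like and 21.8% in macrophage-like cells (21.6 to 22%). Epithelial-like cells stood highest and macrophage-like cells lowest in both tumors, though the interval of macrophage-like cells met that of fibroblast-like cells (21.6 to 21.9%) in the medium tumor. Macrophage-like minus epithelial-like cells gave -3.2 percentage points in the medium and -6.83 in the large tumor. As the mean over cells, which weights shallow and deep cells alike, the differences were -2.05 and -5.97. Cells of the classes overlapped. The middle 50% of epithelial-like cells ran from 18.6 to 27.4% in the medium tumor, and of macrophage-like cells from 17.6 to 24.7%. The same ranges in the large tumor were 22.9 to 32.4% and 18.0 to 24.4%. Depth moved with the classes, with a median of 5982.5 UMIs in epithelial-like and 3516 in macrophage-like cells of the medium tumor and 1174 and 688 in the large tumor, and its part in the difference was not tested. Over all cells the rank correlation of share and UMIs per cell was 0.256 in the medium and 0.268 in the large tumor, within epithelial-like cells 0.265 and 0.181, within macrophage-like cells 0.0725 and -0.0484, and within endothelial-like cells 0.512 and 0.455. The share has the UMIs of the cell as its denominator, so these correlations are a description.

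Among epithelial-like clusters the share varied more than among classes. In the medium tumor it ran from 18.4% in cluster 8 to 29.9% in cluster 5. Cluster 8 was led by Inhba, Bmp2, Piezo2 and Ptgs2 and carried 3 of the 11 epithelial markers, with 5265 CPM for a list of mesenchymal genes and 1571 CPM of vimentin (Vim) against 5992 CPM for the epithelial markers. Its place in the epithelial-like class therefore rests on few markers. Malat1, a nuclear non-coding RNA, was at 49398 CPM in cluster 8 against 21520 over all epithelial-like cells, and at 14971 and 8148 in the high-share clusters 5 and 3. In the large tumor it was at 19768 CPM in the highest and 19468 in the lowest cluster by share, 3 and 4, against 12823 over all epithelial-like cells, and its part in the shares was not tested. Cluster 6, led by the keratin Krt17 and the claudin Cldn4 with Tnc and Fn1, was next at 20%. Clusters 4 (Tff3, Ly6d, Reg1) and 7 (Dmbt1, Lcn2, Sftpd) were both at 23.8%, cluster 1, led by the gastrokines Gkn1, Gkn3 and Gkn2 of gastric pit cells, at 23.9%, and cluster 2 (Mcpt8, Cldn6, En1, Hmga2) at 25.6%. The cycling cluster 3, led by Ube2c, Birc5, Cenpf and Top2a, reached 27.3%. Cluster 5, with the highest share, was led by Yap1 and Birc2, neighbours in the genome, and had 51.7 CPM of Myc against 25.5 in the other epithelial-like cells. Myc did not rank the clusters by share, since cluster 8 had 45.3 CPM, and the highest level of the large tumor was 77.9 CPM in cluster 1, which had its second lowest share. The counting intervals of clusters 8, 6, 2, 3 and 5 did not overlap those of any other epithelial-like cluster. Clusters 4 and 7 did not differ beyond theirs, and cluster 1 (23.9 to 24%) met that of cluster 4 (23.7 to 23.9%).

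Over the 7 epithelial-like clusters of the large tumor the share ran from 23.9% to 34.5%. The lowest was cluster 4, whose leading genes included Fabp1 and Fabp2, fatty acid binding proteins of enterocytes. Cluster 1, led by Ggct and Ramp1 with 3 of 11 epithelial markers and 1678 CPM of Vim, had 25.3%. The goblet-like genes Tff3 and Muc2 led cluster 6 at 28.4%, cycling genes led cluster 5 at 29.1%, and gastrokine and trefoil genes led cluster 7 at 30.8%. Cluster 9, with 18 cells led by Upk3a, Sprr2f and Ly6d, had 34.1%. The highest share was that of cluster 3, whose leading genes were Onecut2, 1500012F01Rik, Xist and Malat1, followed further down by Rps27rt and Rps21, both among the 88 genes. A median cell of cluster 3 held 833 UMIs against 2414 in the cycling cluster 5, so the highest share of the large tumor was in a shallow cluster, while in the medium tumor clusters 5 and 3 were the deepest at 8496 and 9772. With only cells of middle depth (4000 to 8000 UMIs in the medium and 800 to 2000 in the large tumor, a choice made after seeing the data) cluster 5 of the medium tumor remained highest at 28.7% and cluster 8 lowest at 16.5%, while the cycling cluster 3 came down to 24.3%, below cluster 2 at 25.2%. Clusters 3 and 9 of the large tumor were then at 34.2% and 34.5% and clusters 4 and 1 at 24.5% and 24.6%. The cycling cluster 5 of the large tumor came to 27.1%, below the 27.9% of the other epithelial-like cells of that depth. Finer clusterings split a low group from cluster 6 of the large tumor, 56 cells at 15.7% with resolution 1.2 and 18 cells at 17.6% with 20 principal components, which widened the range of that tumor from 10.6 to 18.9 and 16.8 points. In the medium tumor, resolution 1.2 put the lowest share at 17.5%, in 121 cells of which 100% came from the Krt17-led cluster 6. At that resolution most cells of cluster 8 of the medium tumor no longer fell in the epithelial-like class.

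**Figure D1:**
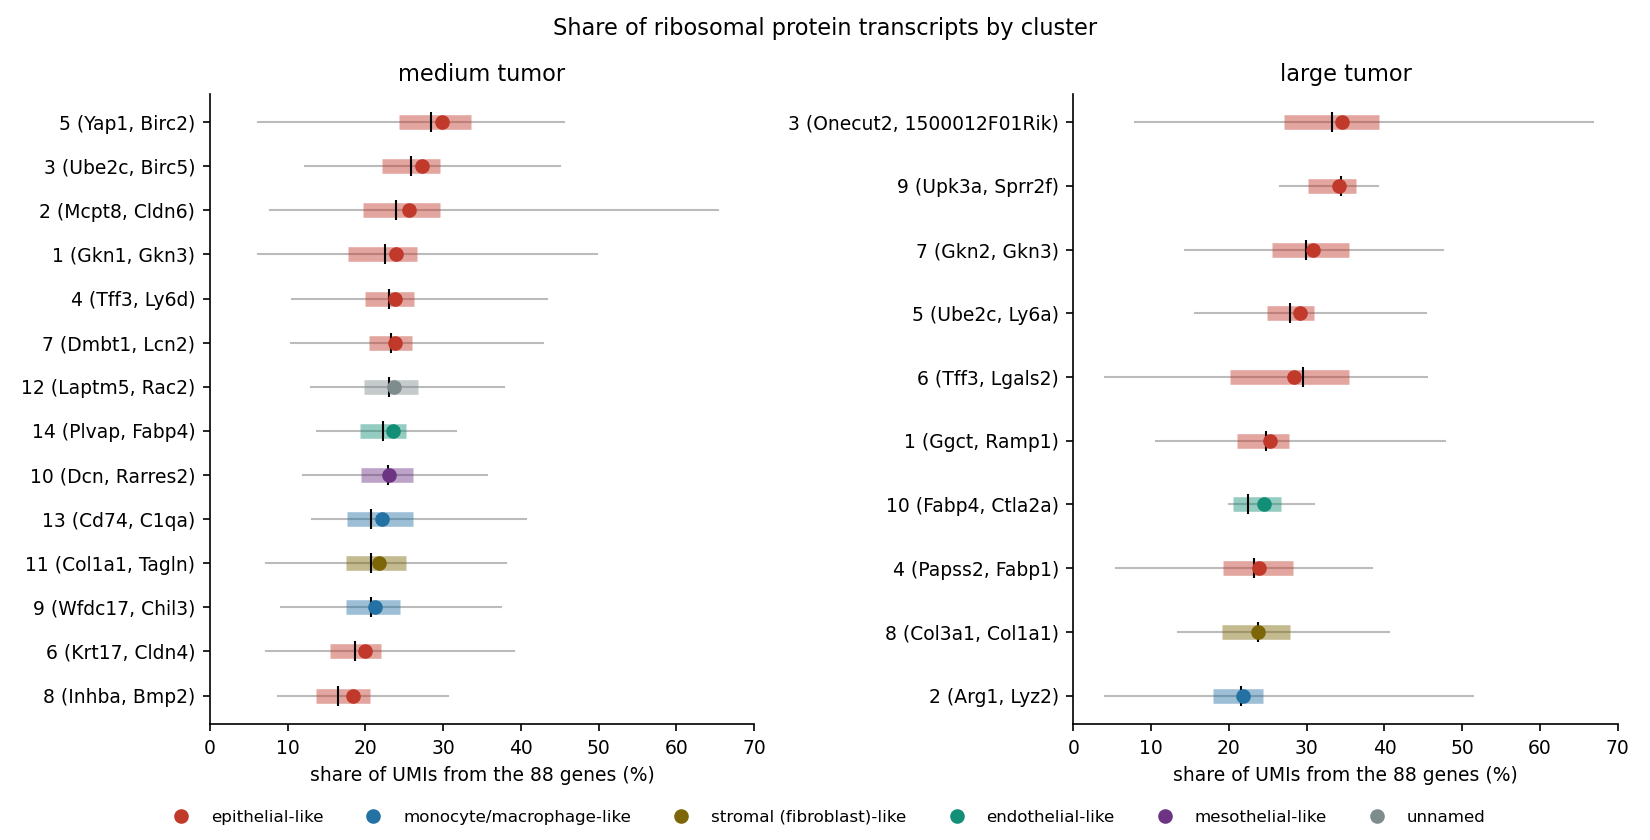
Share of UMIs from the 88 genes (%, horizontal axis) in each cluster of the medium (left) and large (right) tumor, with the 2 first leading genes in brackets. The point is the share of all UMIs of the cluster, the black tick the median cell, the bar the middle 50% of cells, the grey line the lowest to the highest cell, and colors give the class; the points run from 18.4 to 29.9% in the medium and from 21.8 to 34.5% in the large tumor.

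The ratio of large-subunit to small-subunit UMIs differed between clusters. Core large-subunit genes gave 1.32 UMIs per small-subunit UMI over all cells of the medium tumor and 1.29 in the large tumor. The ratio was highest, at 1.44, in cluster 8 of the medium and again at 1.44 in cluster 1 of the large tumor, both with 3 of 11 epithelial markers, Ggct among their leading genes and the highest mesenchymal list level of the epithelial-like clusters of their tumor. It was 1.23 and 1.15 in macrophage-like cells. The stalk genes Rplp0, Rplp1 and Rplp2 made up 5.19% of the UMIs of the 88 genes in the medium and 5.79% in the large tumor. Their part was highest, among epithelial-like clusters, at 5.81% in cluster 8 of the medium and at 6.63% in the enterocyte gene-led cluster 4 of the large tumor. There Rplp1 was at 6857 CPM, Rplp0 at 4291 and Rplp2 at 4714. When clusters were drawn more finely (resolution 1.2), most cells of cluster 8 of the medium and of cluster 1 of the large tumor no longer fell in the epithelial-like class, and the highest ratio left in the class was 1.37 and 1.32.

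Single genes were next compared with the median gene of the list. The log2 CPM ratio of each gene was taken between 2 groups of cells, and a gene was said to deviate when its ratio lay at least 1.5-fold from that of the median gene of the list. Genes with fewer than 200 UMIs in the groups together were left out, which kept 83 of 88 genes in the medium and 81 in the large tumor. Of all genes, the same distance was taken from the median of all genes.

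In macrophage-like against epithelial-like cells the list moved together in both tumors, and few genes left it. In the medium tumor the median gene was at -0.20 log2 (all genes -0.43), 6 of 83 genes were at least 1.5-fold lower, against 42% of all 7538 genes tested, and 3 of 83 deviated, against 49.5%. Among genes with 1000 UMIs or more, a level which 82 of the 88 genes reached, 44.5% of all genes deviated and still 3 of the list. Rps29, a zinc-binding protein of the small subunit, was at 2551 CPM in macrophage-like and 1817 in epithelial-like cells, a log2 ratio of 0.49 (interval 0.43 to 0.55) and a deviation of 0.69. Rps27a, which is made as a fusion with ubiquitin, was at 4997 and 3570 CPM (0.68), and Rpl29 at 1823 and 1370 CPM (0.61). These 3 genes were more abundant in macrophage-like cells while the median gene was lower. They lay close to the 1.5-fold mark, and with each cell classed by its own markers 0 of the 3 reached it. The median gene of the large tumor was at -0.38 (all genes -0.30), 19 of 81 genes were at least 1.5-fold lower, against 36% of 1500 genes, and 4 deviated, against 47.6%, and against 33.9% of genes with 1000 UMIs or more, a level at which the same count, 4 of 80, was found. Rps27l, a paralog of Rps27 that p53 is known to induce, was at 1539 CPM in macrophage-like and 1094 in epithelial-like cells (deviation 0.88). Rps25 stood at 1962 and 1581 CPM (0.70) and Rps29 at 1555 and 1322 (0.62). Rpl7 was the gene below, at 2319 against 5927 CPM, a log2 ratio of -1.35 (-1.49 to -1.22) and a deviation of -0.97.

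The deviations in the large tumor followed those in the medium tumor, which is a separate animal and library. Over the 77 core genes Pearson's r between them was 0.79 and Spearman's rho 0.74, and 58 of 77 genes lay on the same side of the median in both. Genes are not independent replicates, and the contrasts share the annotation and the marker lists, so this is a description. Rps29 (0.69 and 0.62), Rps27a (0.68 and 0.50), Rps25 (0.51 and 0.70) and Rps6 (0.53 and 0.47) were above the median gene in both, as was Rpl29 (0.61 and 0.39). Rpl7 (-0.52 and -0.97), Rps21 (-0.56 and -0.45) and Rpl12 (-0.38 and -0.46) were below in both. Rps25, Rps6, Rps21 and Rpl12 were named for this agreement after their values were seen. The list of epithelial markers was at 664 CPM in macrophage-like and 11538 CPM in epithelial-like cells of the medium tumor and at 229 and 4469 CPM in the large tumor.

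**Figure D2:**
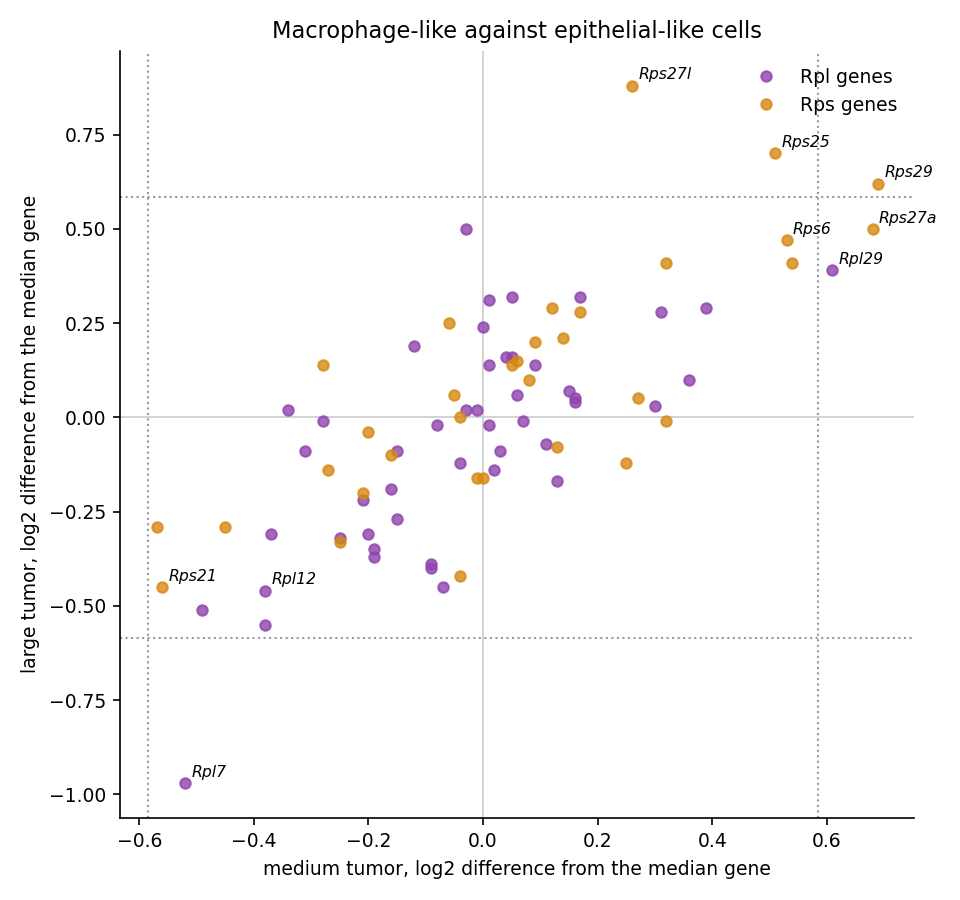
Each point is a gene of the list, with its log2 difference from the median gene (names for those given in the text) in macrophage-like against epithelial-like cells of the medium (horizontal axis) and the large tumor (vertical axis). Dotted lines mark 1.5-fold; Rps29 lies past them in both tumors, and Rpl7 is farthest below in the large tumor, at -0.97.

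The other host classes moved less in the medium tumor, where the median gene was at -0.15 in fibroblast-like (all genes -0.10), -0.08 in mesothelial-like (all genes -0.18) and -0.06 in endothelial-like cells (all genes 0.09), relative to epithelial-like cells. The large tumor had -0.27 in fibroblast-like (all genes -0.10) and -0.17 in endothelial-like cells (all genes 0.12), the latter from 11 cells.

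Among the epithelial-like clusters, ribosomal protein genes kept close together in the medium tumor. Each epithelial-like cluster was compared with all other epithelial-like cells of its tumor. Of 83 genes, 6 deviated in at least 1 of 8 clusters of the medium tumor, against 73.4% of all genes tested and 63.1% of genes with 1000 UMIs or more, among which 5 of 82 did. Of 81 genes, 16 deviated in at least 1 of 7 clusters of the large tumor, against 87.1% of all genes and 70.5% of those with 1000 UMIs or more, with 16 of 80. The median gene of the list itself moved in several clusters. In cluster 5 of the medium tumor, with the highest share, the median gene was at 0.31 (all genes -0.19) and 9 of 83 genes were at least 1.5-fold higher, against 4.03% of all genes. In cluster 8 the median was at -0.48 (all genes 0.06) and 28 of 83 were at least 1.5-fold lower, against 17.1%, and in cluster 6 it was at -0.34 (all genes 0.17) with 9 of 83 lower, a count near the 10.7% of all genes. For the large tumor, 3 of 81 genes were that much higher in cluster 3 (median 0.30, all genes -0.13), near the 2.93% of all genes. Further, 12 of 81 were lower in cluster 1 (median -0.27, all genes -0.03), no more than the 17.2% of all genes, and 15 of 81 lower in cluster 4 (median -0.30, all genes -0.47), fewer than the 47% of all genes.

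Rps2, a small-subunit protein near the mRNA entry, was the only core gene that deviated in more than 1 cluster of the medium tumor. It was at 4650 CPM in cluster 5 and 3556 in the cycling cluster 3, between 2078 and 2188 in clusters 2, 4 and 6, and at 1820 in cluster 7, 1719 in cluster 1 and 1377 in cluster 8. In cluster 5 its log2 ratio to the other epithelial-like cells was 1.05 (1.02 to 1.08). Its deviation was 0.74 in cluster 5 and -0.63 in cluster 1, past the 1.5-fold mark in both. Its highest level in the large tumor was 3054 CPM in the cycling cluster 5 and its lowest 1231 CPM in cluster 4, where its deviation was -0.72. Rps2 stood above the median gene in the cycling cluster of both tumors, by 0.39 and 0.53, though neither difference reached 1.5-fold.

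Rps27l moved apart from its parent gene Rps27. In the medium tumor it was at 880 CPM in cluster 6, led by Krt17, and at 423 CPM in cluster 5 (deviations 0.95 and -0.91). The large tumor had it at 1904 CPM in the goblet gene-led cluster 6 and 804 CPM in cluster 3 (0.89 and -0.79). The lowest level of the large tumor was 784 CPM in cluster 1. Rps27 and Rps27rt were both above the median gene in cluster 7 of the medium tumor, at 0.67 and 0.80. Rpl29 was above it in cluster 4, at 0.60, and Rpl7l1 in cluster 6, at 0.61.

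In cluster 4 of the large tumor, led by enterocyte genes, 10 of the 81 genes deviated, 5 in each direction, against 64.1% of all 1367 genes. Cluster 4 held the most deviating genes of this tumor in the list and over all genes alike. Rps29 (0.91), Rpl28 (0.82), Rpl41 (0.63), Rpl29 (0.61) and Rplp1 (0.61) were above the median gene, and Rps3a1 (-0.80), Rpl22l1 (-0.76), Rpl3 (-0.76), Rpl12 (-0.72) and Rps2 (-0.72) were below. Cluster 4 had the lowest share of the list among the epithelial-like clusters and the lowest levels of the biogenesis factors. In the small cluster 9, Rpl24, Rpl7, Rpl34 and Rpl6 lay below, from -0.71 to -0.59. In cluster 1, Rpl22l1 deviated at 0.90 and Rps24 at -0.60.

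**Figure D3:**
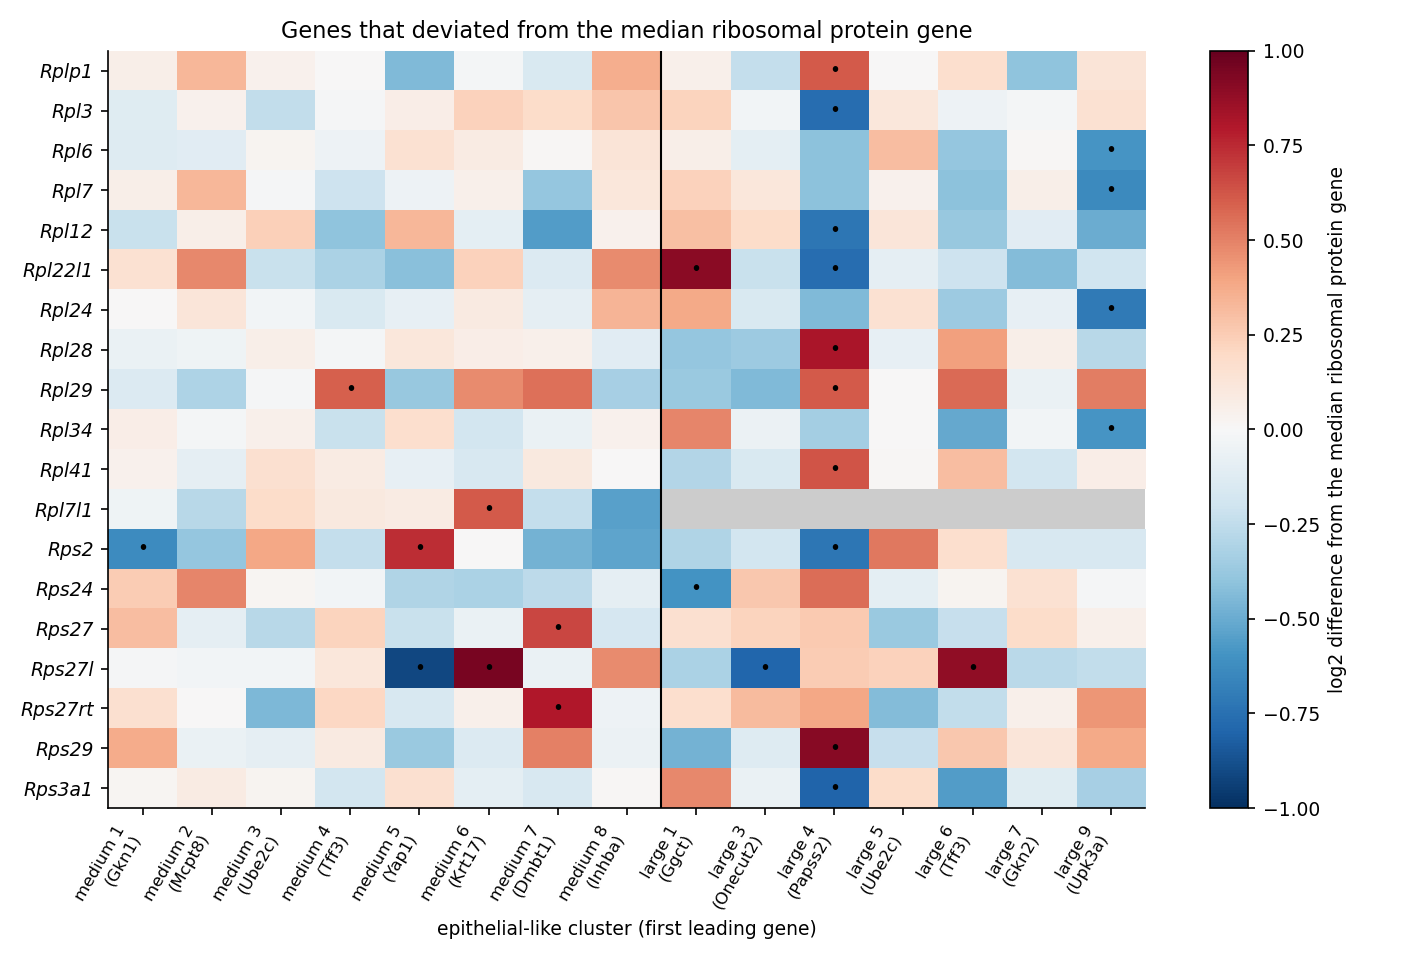
Log2 difference from the median gene of the list (color) for the 19 genes that deviated in at least 1 epithelial-like cluster, in the 8 clusters of the medium and the 7 of the large tumor. A dot marks at least 1.5-fold and grey a gene with fewer than 200 UMIs; cluster 4 of the large tumor holds 10 of the dots.

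Rpl22l1, the paralog of the RNA-binding protein Rpl22, took its largest part of the pair in the epithelial-like clusters with 3 of 11 epithelial markers. Of the UMIs of both genes, Rpl22l1 gave 59.1% in cluster 8 of the medium tumor (interval 57.3 to 60.9%) and 64.6% in cluster 1 of the large tumor (62.8 to 66.3%), the highest in each tumor. Cluster 2 of the medium tumor, with 9 of 11 epithelial markers, came next in that tumor at 54.5% (53.2 to 55.9%). The part of Rpl22l1 was lowest among epithelial-like clusters at 35.4% in cluster 4 of the medium (33.8 to 37.1%) and 41.4% in cluster 4 of the large tumor (37.8 to 45.1%). The parts differed in how they arose. In cluster 8 of the medium tumor Rpl22l1 was at 914 CPM, close to the 920 CPM of all epithelial-like cells, and Rpl22 was at 632 against 1130. In cluster 1 of the large tumor Rpl22l1 was at 4247 CPM against 3070 and Rpl22 at 2331 against 2648. Fibroblast-like cells had 53.7% and 52.8%, macrophage-like cells 43.1% and 44.4%. No stretch of 50 bases of an Rpl22l1 transcript occurs in one of Rpl22 (GENCODE M21), so reads of the pair can be told apart.

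Rps27l gave between 15.9% (cluster 7) and 36.3% (cluster 6) of the UMIs of Rps27l and Rps27 in the epithelial-like clusters of the medium tumor, and between 14.6% (cluster 3) and 38.7% (cluster 6) in those of the large tumor. In macrophages it was at 42.4% in cluster 2 of the large tumor (38.7 to 46.1%) and at 41.9% in cluster 13 of the medium tumor (37.1 to 46.8%), which was led by Cd74 and complement genes. In cluster 9, the larger macrophage cluster of the medium tumor, it was 26.8% (24.6 to 29.1%). These sums leave out Rps27rt, a near copy of Rps27 treated below. Its part beside Rps27 was larger in the large tumor, so the parts of Rps27l in different tumors are not like measures. Cluster 13 held cycling cells, with 2092 CPM for the cycling gene list against 135 in cluster 9. Cycling was thus one measured difference between these macrophage clusters, and its part in the paralog was not tested.

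Rps27rt behaved otherwise. This retrogene of Rps27 shares a stretch of 341 of its 374 bases with Rps27, 91.1% of its 50-base stretches occur there, and the end of its start window repeats that of Rps27 shown above. Its part of the pair was close to constant within a tumor, at 5.85 to 7.60% over the 14 clusters of the medium tumor and 17.6 to 25% over the clusters of the large tumor other than the endothelial-like one, which had 12.2% from 6 UMIs (4.63 to 24.8%). Between the tumors it was 6.48% and 20.6%. Reads of the 2 genes are hard to separate, and its values are uncertain. Rpl36al gave 44.6% of its pair with Rpl36a in the medium and 40.4% in the large tumor, and between 33.3 and 51.0% over clusters. Rpl7l1, a biogenesis factor related to Rpl7, gave 1.45% and 0.752% of the UMIs of its pair with Rpl7. Rps19bp1 was at 90.4 CPM in the medium and 25.9 in the large tumor.

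**Figure D4:**
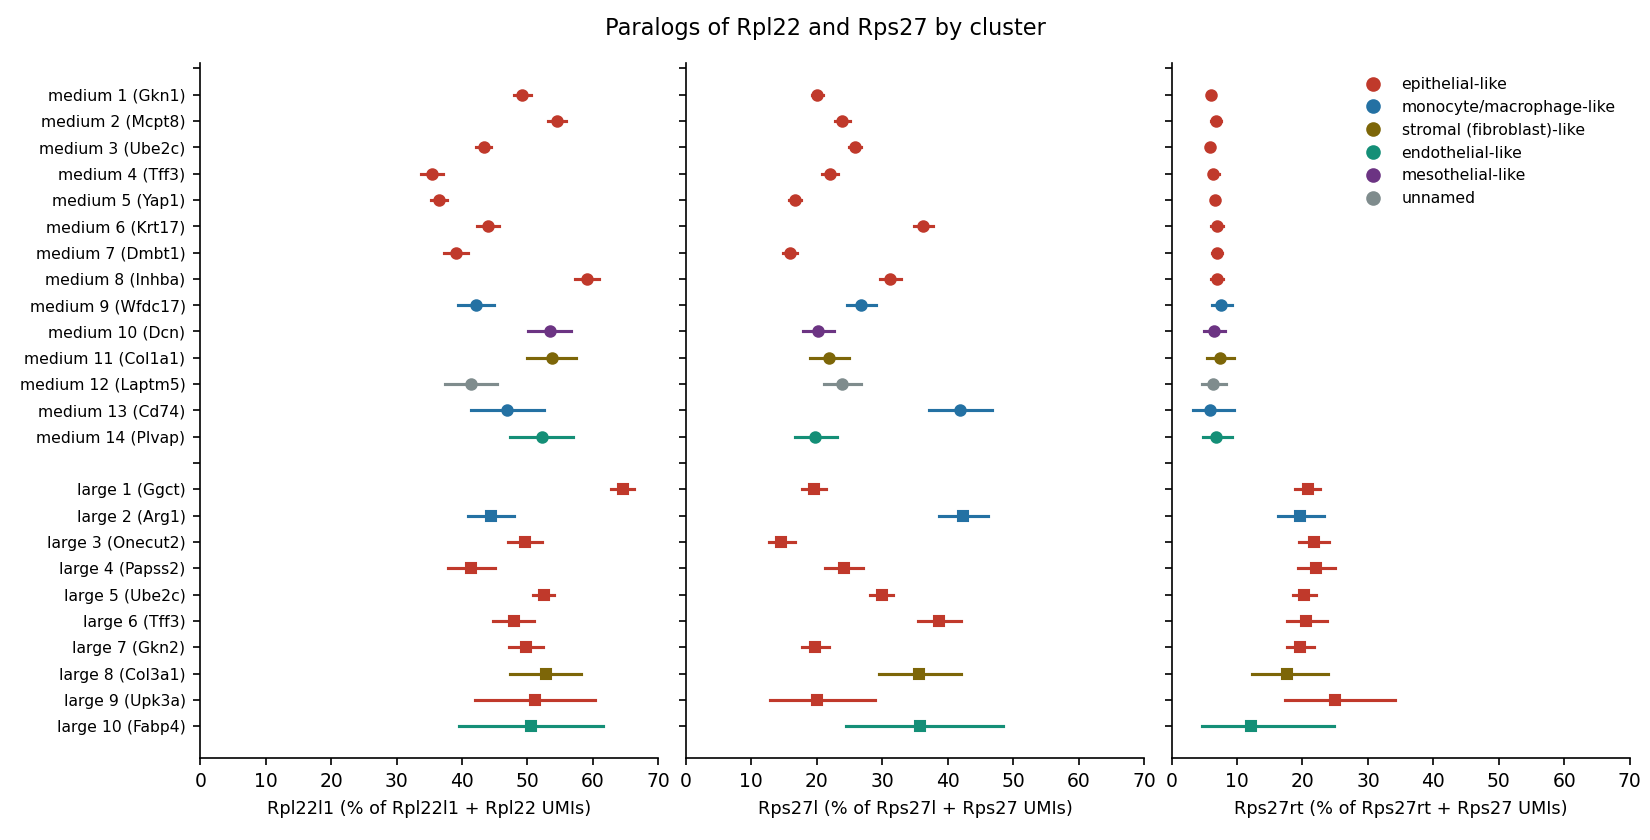
Part of the UMIs of a pair that came from the paralog (%, horizontal axis) for Rpl22l1, Rps27l and Rps27rt in every cluster, with exact 95% intervals of counting error. Circles are the medium and squares the large tumor, and colors give the class; Rpl22l1 peaks at 59.1% and 64.6% in the clusters led by Inhba and by Ggct, while Rps27rt is near one level in each tumor.

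The genes around the ribosome did not all follow the list. Of the 37 ribosome biogenesis genes in the tables, 34 had enough counts in the medium tumor. In the cycling cluster 3, 20 of 34 were at least 1.5-fold higher and none lower (median 0.66), against 8.84% of all genes, while 0 of 83 ribosomal protein genes passed that fold (median 0.18). In the cycling cluster 5 of the large tumor 4 of 8 were higher (median 0.62), against 14.6%, and the ribosomal protein genes had a median of 0.03. Npm1 was at 1231 CPM in the cycling cluster of the medium and 2502 in that of the large tumor, and Ncl at 1099 and 689. In the cycling cells the biogenesis list was thus raised by more than the ribosomal protein list in both tumors. Cluster 4 of the large tumor had a median of -2.34 for 8 biogenesis genes, with Npm1 at 258 CPM against 1989 in the other epithelial-like cells and Ncl at 61.8 against 494. Of the list of translation factors and other motif genes, which includes Vim, the 17 with enough counts had a median of -0.40 there. The ribosomal protein genes had -0.30, and both medians were above the -0.47 of all genes. In macrophage-like cells of the medium tumor 19 of 34 biogenesis genes were at least 1.5-fold lower (median -0.69), against 42% of all genes (median -0.43), as were 7 of 8 in the large tumor (also -0.69), against 36% (median -0.30). Of mitochondrial ribosomal protein genes, 28 of 74 were lower in macrophage-like cells of the medium tumor (median -0.49), which is no more than the 42% of all genes. In the cycling cluster 10 of 74 were higher (median 0.36), against 8.84%, as were 8 of 27 in that of the large tumor (median 0.31), against 14.6%.

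Eef1a1, the elongation factor that delivers aminoacyl-tRNA, went with the share in one tumor only. Across clusters its Pearson's r with the share was 0.06 over 14 clusters in the medium and 0.80 over 10 in the large tumor. In the medium tumor it was at 4949 CPM in cluster 6, where the share was 20%, and at 3421 CPM in the cycling cluster 3, where it was 27.3%. Of the companion ribosomal proteins, r was 0.51 for Fau and 0.60 for Gnb2l1 in the medium tumor, and 0.36 for Fau and 0.51 for Gnb2l1 in the large tumor, above Eef1a1 in the medium and below it in the large tumor. Tpt1 had 0.34 and 0.40, Npm1 0.56 and 0.28, and Ncl 0.68 in the medium tumor. The mRNA of Tpt1 is known to begin with a pyrimidine run. No run of at least 8 bases was found within 20 bases of its annotated start here. Of 2720 genes outside the list with at least 1000 UMIs, those most like the share in the medium tumor were Wdr89 (0.90), Gm8730 (0.89), the pseudogene row Rps12-ps3 (0.87), Hsd17b14 (0.86) and Naca (0.80), a subunit of the complex that binds nascent chains. The large tumor gave r of 0.81 for Wdr89, 0.82 for Rps12-ps3, 0.68 for Naca and 0.18 for Gm8730, and Hsd17b14 had too few UMIs there. Among 225 genes with at least 1000 UMIs in the large tumor, Wfdc2 was most like the share (0.84) and Pabpc1, the poly(A)-binding protein, had 0.79, both named after their values were seen. Clusters of a tumor share a library and differ in depth, so these values are a description.

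Between the tumors, single ribosomal protein genes spread more widely than between the cell states of either tumor. Clusters led by Ly6d, a gene of the B cell list, were left out of the epithelial-like class here, namely cluster 4 of the medium and cluster 9 of the large tumor. In the remaining cells the log2 CPM ratio of the large to the medium tumor ran from -3.26 to 1.63 over the core genes, with an SD of 0.79, against an SD of 0.14 to 0.26 in the cluster comparisons of the medium and 0.14 to 0.36 in those of the large tumor. Of 83 genes, 35 deviated from the median gene, 16 above and 19 below, against 45.7% of 7386 genes. That share is near the background.

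The tumors were compared in 4 pairs of like clusters, led by gastrokines (cluster 7 of the large and 1 of the medium tumor), by cycling genes (5 and 3), by Ggct or by Inhba with Ggct among the 10 leading genes (1 and 8) and by macrophage genes (2 and 9). Of 80 genes with enough counts in all pairs, 22 were at least 1.5-fold from the median gene on the same side in all 4, against 24.3% of 503 genes, a share near that of all genes. Of these, 15 were below, against 11.5%, and 7 above, against 12.7%. The pairs share the 2 libraries and are not independent. Rpl35 was lowest in each, at -3.60, -3.40, -3.49 and -3.51 relative to the median gene, and had 288 UMIs in the whole large tumor. Rpl41, the shortest ribosomal protein, was at -2.21, -2.15, -2.20 and -1.66. Rpl28 was at -1.66, -1.88, -1.91 and -2.08, and Rpl10, which joins the large subunit late in its assembly, at -1.81, -1.70, -1.99 and -1.57. Each of these genes was at -1.57 or lower in all 4 pairs. Rps16, Rpl36, Rpl18, Rps15, Rps26, Rps14, Rpl29, Rps29, Rpl38 and Rps3 were also among those below. Above the median gene were Rpl22l1 (1.00, 1.59, 1.82 and 1.25), Rpl27 (1.19, 1.55, 1.36 and 1.53), Rpl22 (0.97, 1.07, 1.49 and 1.11) and Rps20 (1.05, 1.00, 1.44 and 0.68), with Rps27a, Rps21 and Rpl39.

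In CPM of the epithelial-like cells, Rpl35 was at 1276 in the medium and 133 in the large tumor, a log2 ratio of -3.26 (-3.44 to -3.08). Rpl41 was at 4812 and 1396 (log2 -1.78, -1.84 to -1.73), Rpl27 at 729 and 2261 (1.63, 1.58 to 1.68) and Rps20 at 2096 and 4978. Rpl35 ran from 988 to 1474 CPM over the epithelial-like clusters of the medium tumor and from 103 to 145 over those of the large tumor, so the ranges did not overlap. Rps27rt had the largest ratio of the list, at 136 and 891 CPM, with the limit on its reads given above. Base composition moved with the difference. Over the 77 core genes the ratio of the tumors had a Pearson's r of -0.46 with the GC content over 500 bases at the transcript's 3′ end, where reads of this chemistry fall, and over all genes r was -0.37. It was -0.44 in the gastrokine-led, -0.46 in the cycling, -0.44 in the Ggct-led and -0.40 in the macrophage-led pair. Within the medium tumor the same r for core genes lay between -0.15 and 0.10 over clusters, and within the large tumor between -0.28 and 0.26. Tumor size, animal, library and depth cannot be told apart here, and the part of base composition was not tested.

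**Figure D5:**
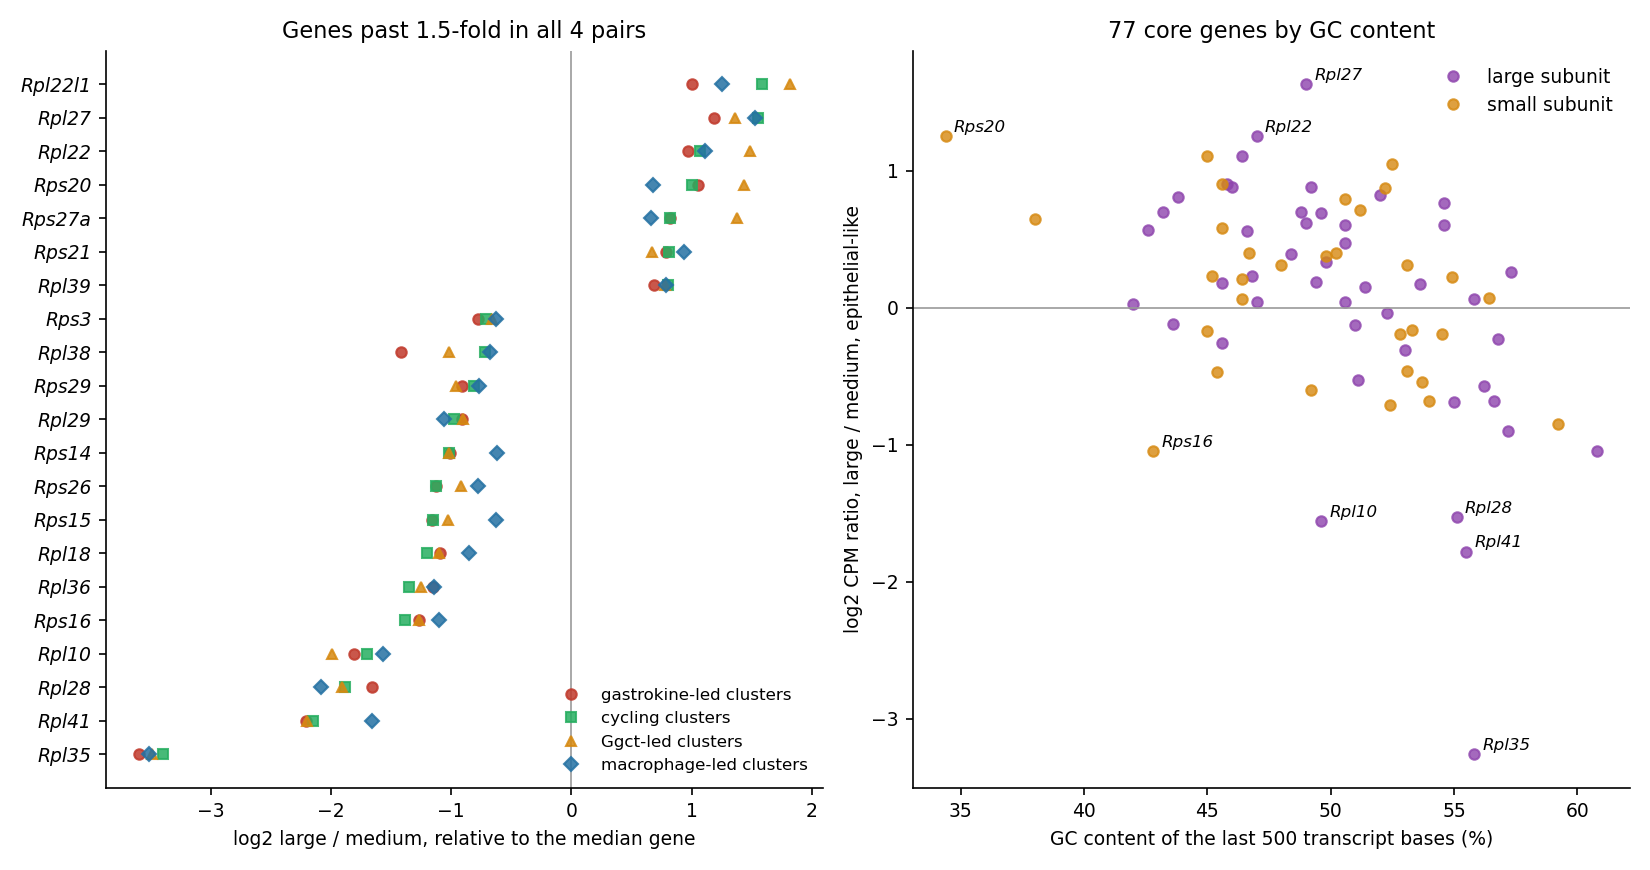
Left, log2 ratio of the large to the medium tumor relative to the median gene for the named genes at least 1.5-fold from it in all 4 pairs of like clusters (symbols). Right, log2 CPM ratio in epithelial-like cells against GC content over 500 bases at the 3′ end for the 77 core genes, with r of -0.46; Rpl35 is at -3.26.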

How the data were processed

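Single-cell libraries of 2 KPC mouse tumors were sequenced by the authors after 10x Chromium 3′ v2 capture. The deposited tables hold raw UMI counts per gene and cell, which per the submitters' processing notes came from Cell Ranger (version not given in the sources used here) and mm10; the 4 technical replicates of a tumor are pooled in 1 table and cannot be separated. All deposited cells and 27775 rows were used. Total counts were 20301669 for the medium and 2239012 for the large tumor.

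Counts were log-normalized to 10000 per cell in Seurat 5.3.0 (R 4.3.3). The 2000 most variable genes without the 88 ribosomal protein genes, 10 principal components and resolution 0.8 gave the clusters. By default 3 of the 88 genes would have been among the variable genes of the medium and 5 of the large tumor. A cluster was named for a class when at least 3 of its markers were seen in 10% of cells at 25% or more of their highest cluster level, unless another class also had 60% of its markers. Doublets were not removed. Some genes and alleles are not reported here by name. Counts were summed per group; ratios of CPM had 1 UMI added to each sum, a minimum of 200 UMIs in both groups together and a 1.5-fold mark. Shares carry exact (Clopper-Pearson) binomial intervals, and zeros the limit of 3 counts. The calculation was tested on simulated data. Starts came from RefSeq (GRCm38.p6); GC content and gene models from GENCODE M21, in which all 88 symbols matched.

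The genes, lists, markers and naming thresholds were chosen with earlier results of these data known. Genes were named by rule: up to 4 above and 4 below the median gene per comparison, by size, every paralog with its parent, the stalk genes and Rpsa, core genes under 100 UMIs, listed companions, leading genes, and the 5 genes most like the share. For cluster 4 of the large tumor and the 4 pairs of like clusters further genes were named after their values were seen. Alternatives were other clusterings, classes called cell by cell, other shares, minimums, added counts and TMM scaling (edgeR 4.0.16).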

Additional observations from a re-analysis of the deposited data

Results flagged for a closer look

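The share of ribosomal protein transcripts in the gastrokine-led cluster, relative to the other epithelial-like cells, went in opposite directions in the tumors. It was lower in the medium tumor, by -0.933 percentage points, and higher in the large tumor, by 2.58 points. With 1 library per tumor this difference between the tumors was not tested. In cells of middle depth it was -0.546 and 2.78 points. Over all cells the other like contrasts went the same way in both tumors, with -3.2 and -6.83 points for macrophage-like minus epithelial-like cells, 3.21 and 0.714 for the cycling cluster and -7.08 and -4.26 for the cluster led by Inhba or Ggct. In cells of middle depth the cycling cluster gave 1.36 points in the medium but -0.856 in the large tumor.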

How the results depend on the processing

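No paired analysis was possible because the numbered technical replicates are pooled in 1 table per tumor, and leaving out a replicate could not be run for the same reason. None of the differences and counts below changed sign, but the order of clusters by share changed in cells of middle depth. Cluster 3 of the medium tumor (24.3%) fell below cluster 2 (25.2%), and cluster 1 (22.7%) below clusters 4 (23.2%) and 7 (23.3%). In the large tumor cluster 9 (34.5%, 9 cells) came above cluster 3 (34.2%), and cluster 5 (27.1%) fell below cluster 6 (28.4%). The cycling cluster of the large tumor minus its other epithelial-like cells turned from 0.714 to -0.856 points. Of the alternatives for the main results 59 left the value or call in place and 28 moved it, and for single genes and clusters 260 and 32. The macrophage-like minus epithelial-like share (-3.2 points in the medium, -6.83 in the large tumor) became -3.59 and -7.86 without the 50 most abundant other genes, -2.22 and -6.45 with each cell classed by its own markers, -2.05 and -5.97 as a mean over cells, -3.93 and -7.77 at resolution 1.2, -2.36 and -6.45 without the 5% of cells with the most UMIs, and -2.69 in the medium tumor at resolution 0.4. Large minus medium in epithelial-like cells (3.87) became 4.6, 4.2, 4.09 and 4.33 without the abundant genes, as a mean over cells, at resolution 1.2 and without the deepest cells, and 3.73 without the clusters led by Ly6d; no direction was read from it. The range over epithelial-like clusters (11.5 medium, 10.6 large) became 10.9 and 16.8 with 20 principal components, 12.9 and 11.7 without the abundant genes, 12.2 and 10 in cells of middle depth, 8.99 and 10.1 at resolution 0.4, 12.4 and 18.9 at resolution 1.2, and 10.8 in the medium tumor without the deepest cells. The count of genes deviating in macrophage-like cells of the medium tumor (3) became 0 with cells classed by their own markers. Leaving out the deepest cells, the middle depth range and the Ly6d-led clusters were chosen after seeing the data; the cause of these moves was not tested. The depth of the large tumor left 8 biogenesis genes and 81 of the 88 genes with enough counts.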

Other observations

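Rpsa, the small-subunit protein that also serves as a laminin receptor, was low in clusters 8 and 1 of the medium tumor, as Rps2 was. It was at 1420 CPM in cluster 8, where the median gene of the list was itself at -0.48, and at 1715 in cluster 1. Its level was 2700 CPM in cluster 4, 2625 in cluster 5 and 2511 in cluster 3. Among the epithelial-like clusters of the large tumor it was lowest in cluster 4, at 2792 CPM, and highest in cluster 3, at 4204. In the gastrokine-led clusters it lay below the median ribosomal protein gene of both tumors, at -0.37 and -0.21, as did Rps20 at -0.40 and -0.35. Over the 77 core genes, the deviations of the medium and the large tumor had an r of 0.37 for the gastrokine-led, 0.56 for the cycling and 0.49 for the Inhba- or Ggct-led cluster, all lower than the 0.79 for macrophage-like cells.

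Rpl23a (0.45 and 0.49), Rpl24 (0.34 and 0.38) and Rpl13a (0.33 and 0.30) were above the median gene in the Inhba-led cluster of the medium and the Ggct-led cluster of the large tumor, and Rps12 (-0.48 and -0.35), Rps2 (-0.53 and -0.30) and Rps6 (-0.31 and -0.34) were below. These genes were picked after their values were seen, and none of these values reached 1.5-fold.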
